A study of Rattus norvegicus with 6 samples.

Results

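The miR-17-92 and miR-106b-25 clusters are paralogous groups of miRNAs, each cut from a single primary transcript. The members taken here were 9 mature arms chosen by name: rno-miR-17-5p, rno-miR-18a-5p, rno-miR-19a-3p, rno-miR-19b-3p, rno-miR-20a-5p and rno-miR-92a-3p of miR-17-92, and rno-miR-106b-5p, rno-miR-93-5p and rno-miR-25-3p of miR-106b-25. Of these, 8 were among the 562 mature rat miRNAs listed in every library, and miR-19a-3p was not listed. The arcuate nucleus (ARC) of the hypothalamus was collected on Day 14 from Sprague-Dawley rats of 8 to 10 weeks, and its miRNAs were sequenced in 3 sham libraries and 3 CCI-ION libraries. CCI-ION is a chronic constriction injury of the infraorbital nerve, a model of trigeminal neuropathic pain in which loose ligatures are tied around the left nerve. Sham rats had the nerve exposed on one side without a ligature. The study used males unless it specified otherwise. It names more rats per group than there are libraries and does not say whether rats were pooled, so n counts libraries and p-values measure only the spread between them.

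A miRNA guides the silencing complex to mRNAs that pair with its seed, bases 2 to 8 from its 5′ end, so arms that share a seed are predicted to share most targets. The transcription factors Myc and E2F drive both clusters, and their best known targets include the cell cycle inhibitor Cdkn1a and the death factor Bim. In the nervous system the clusters are known from dividing neural progenitors, where they favour proliferation, and from neurons, where miR-17-92 promotes axon growth.

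In the RefSeq miRNA table of assembly GRCr8, the 6 hairpins of miR-17-92 lie on the plus strand at chr15:98587861-98588622 (762 bases). In the RefSeq gene table, no gene other than those of miRNAs encloses them all. The 3 hairpins of miR-106b-25 lie on the minus strand at chr12:22156652-22157123 (472 bases), inside Mcm7, which encodes a subunit of the replicative helicase. A further paralog on the X chromosome, miR-106a-363, has 5 hairpins at chrX:137342788-137343637 on the minus strand. Each span runs from the first to the last base of its mature arms.

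The mature sequences of the members are shown because the seed sets the comparisons made here and because near-identical arms can share reads. Capitals mark the seed. The first 4 share one seed, and the next differs from it by a single base:
miR-17-5p: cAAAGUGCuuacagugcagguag
miR-20a-5p: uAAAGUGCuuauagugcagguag
miR-106b-5p: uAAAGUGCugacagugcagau
miR-93-5p: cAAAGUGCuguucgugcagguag
miR-18a-5p: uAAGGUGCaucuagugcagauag
miR-19b-3p: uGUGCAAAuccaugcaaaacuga
miR-92a-3p: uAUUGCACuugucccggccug
miR-25-3p: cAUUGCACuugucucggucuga

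Counted from the 5′ end, the seed of miR-18a-5p differs from that of miR-17-5p by G4A, with the base of miR-18a-5p first. Within the AAAGUGC seed, miR-17-5p and miR-20a-5p differ at 2 of 23 bases (C1U and C12U), and miR-106b-5p differs from each of them at 3 of its 21 bases. miR-92a-3p and miR-25-3p differ at 3 of 21 bases. miR-17-5p, miR-19b-3p and miR-92a-3p have the same mature sequence in hairpins on chromosome 15 and on the X chromosome, so their values cannot be divided between miR-17-92 and miR-106a-363. How the authors counted reads that fit several arms is not given in the sources used here, so values of single members are uncertain to that extent.

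The authors deposited a value per miRNA and library, taken here as a normalized count, the number of reads over the size factor of that library. The factors, worked out from the values themselves, gave back 8628309 to 14313839 reads per library, and CCI-ION replicates 2 and 3 had the fewest. The smallest value above 0 was worth 5 reads, and a miRNA listed at 0 may thus have had fewer reads than that. Lists of miRNAs typical of cell types checked the tissue. The 6 neuronal ones summed to between 2041436 and 2229136 normalized counts in sham libraries and to between 1616061 and 2011890 in CCI-ION libraries, and 1 of them was called lower. The 3 of oligodendrocytes summed to between 9165 and 14031 against 7133 to 7612, with 1 called lower. The 5 of vascular smooth muscle and fibroblasts summed to between 41158 and 57404 against 88151 to 106793, with 3 called higher. The 2 of endothelium summed to between 45442 and 54854 against 63095 to 70810, with none called. That sum is set by miR-126a-3p (log2 fold change 0.44), and miR-126a-5p lay the other way (-0.91). miR-7a-5p and miR-7b, typical of hypothalamus and pituitary, summed to between 2109492 and 3403383 against 936240 to 1547614, with none called. In the other lists, those of immune cells (2707 to 3404 against 2170 to 2702) and of choroid plexus and ependyma (61976 to 85713 against 80785 to 103356), none was called. The median log2 fold change of the 5 immune miRNAs was 0.06, so their lower sum does not hold for each of them. In bulk tissue, fewer cells of a type and less RNA per cell cannot be told apart, and the part of these shifts in any value of the members was not tested.

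The members spanned a wide range of abundance. miR-25-3p was the most abundant, with a mean of 6348 normalized counts ± 837 in sham libraries (SD, n = 3) and the 99th highest mean of the 562 listed. miR-92a-3p followed at 5542 ± 448 (SD, n = 3). Below these came miR-93-5p at 1757 ± 182.04 (SD, n = 3), miR-17-5p at 1085 ± 69.1 (SD, n = 3) and miR-20a-5p at 463 ± 83.0 (SD, n = 3). miR-106b-5p had 98.4 ± 14.9 (SD, n = 3) and miR-19b-3p 28.9 ± 8.68 (SD, n = 3), while miR-18a-5p was listed at 0 in every sham library. This order was the same in each of the 6 libraries. The smallest step was that between miR-25-3p and miR-92a-3p, a ratio of 1.02 to 1.23 within libraries. All members together made up 0.122% to 0.193% of the normalized counts of a library. This share was higher in every CCI-ION library than in any sham library, while the members' summed counts overlapped between the groups. The deposited totals were themselves lower in the CCI-ION libraries, and the share was not tested.

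**Figure D1:**
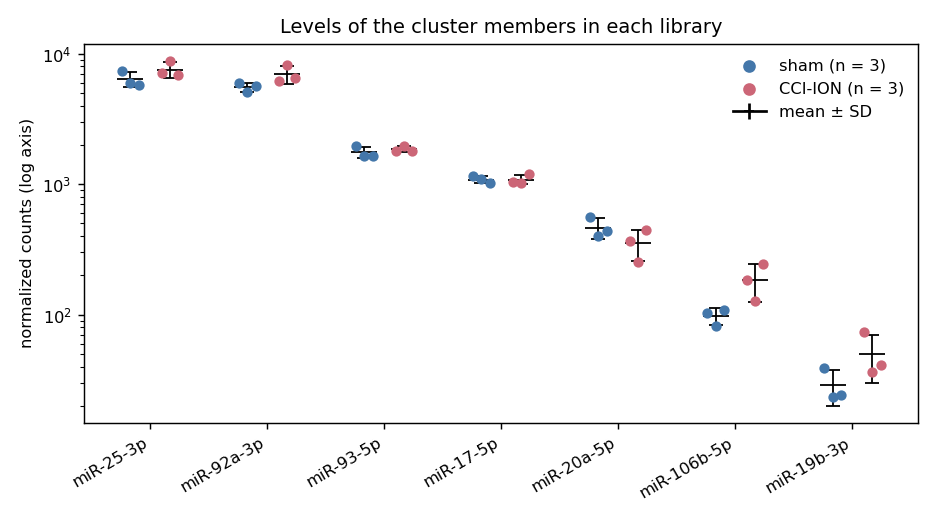
Normalized counts (log axis) of the 7 members above 0 in every library, with a point for each of the 3 sham (blue) and 3 CCI-ION (red) libraries and bars for mean ± SD. miR-18a-5p is left out. The means of miR-92a-3p and miR-19b-3p, from the same cluster, differ by 158-fold, and the CCI-ION libraries lie above the sham libraries for miR-92a-3p and miR-106b-5p.

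Members of one cluster therefore stood at very unequal levels. miR-92a-3p held 76.9% to 86.1% of the counts of the miR-17-92 members, and its mean was 158 times that of miR-19b-3p (84.3 to 231 times within libraries). miR-92a-3p and miR-19b-3p are also encoded in miR-106a-363, so these values are not levels of arms of a single transcript. In miR-106b-25, miR-25-3p held 76.7% to 80.7%. Grouped by seed instead, miR-93-5p from chromosome 12 held 49.0% to 58.2% of the 4 members with AAAGUGC and miR-17-5p 30.4% to 33.8%. miR-106b-5p held 2.52% to 6.61% of that group. These are shares of reads, and ligation and amplification bias between sequences was not measured.

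None of the 8 members differed between CCI-ION and sham rats at an adjusted p under 0.05. The test was limma on log2(normalized count + 1) with Benjamini-Hochberg adjustment over the 555 miRNAs tested, of which 6.85% were called. The members' adjusted p lay between 0.104 and 0.993. At an unadjusted p under 0.05 there was 1 member, miR-106b-5p, where 33.0% of all miRNAs tested were. In 2 members, miR-92a-3p and miR-106b-5p, the groups did not overlap, against 40.7% of all miRNAs. The log2 fold change was above 0 in 6 members and below 0 in 2, of which miR-17-5p was at -0.001. The members' median was 0.28, where that of all miRNAs tested was -0.01. All 8 passed the filter on low values, a mean of at least 1, but miR-18a-5p did so only through its single library above 0, which was a CCI-ION library. Without it, 5 members were above 0 and 2 below, with a median of 0.24.

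miR-106b-5p, the first arm of the Mcm7 cluster, had the largest difference among the members above 0 in every library. In order of replicate number, its normalized counts were 104, 81.5 and 110 for sham and 183, 127 and 243 for CCI-ION. Every CCI-ION library was above every sham library, but the lowest CCI-ION library was nearer to the highest sham library than to the other CCI-ION libraries. The means were 98.4 ± 14.9 and 184 ± 58.3 (SD, n = 3 each), a ratio of 1.875. The log2 fold change was 0.86 (standard error 0.27, 95% interval 0.19 to 1.54, adjusted p = 0.104 from limma), and this did not pass the threshold. These values rested on 91 to 226 reads a library.

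miR-93-5p is its neighbour in Mcm7 and has the same seed. It had 1967, 1654 and 1650 normalized counts in sham libraries and 1804, 1965 and 1805 in CCI-ION libraries, and the groups overlapped. The log2 fold change was 0.08 (standard error 0.12, 95% interval -0.22 to 0.39, adjusted p = 0.649 from limma). miR-25-3p, the last arm of this cluster and of another seed, had 7310, 5945 and 5789 in sham libraries and 7041, 8735 and 6805 in CCI-ION libraries. Its log2 fold change was 0.24 (standard error 0.16, 95% interval -0.16 to 0.65, adjusted p = 0.321 from limma), again with overlapping groups.

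In miR-17-92, miR-17-5p had equal means in the groups. It had 1150, 1093 and 1012 normalized counts in sham libraries and 1036, 1029 and 1191 in CCI-ION libraries, with means of 1085 in both. The 95% interval of its log2 fold change ran from -0.30 to 0.30 (adjusted p = 0.993 from limma). miR-20a-5p, which comes only from chromosome 15, had 557, 398 and 434 in sham libraries and 367, 254 and 442 in CCI-ION libraries. The groups overlapped through CCI-ION replicate 3, and the log2 fold change was -0.41 (standard error 0.25, 95% interval -1.03 to 0.22, adjusted p = 0.294 from limma).

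miR-92a-3p, the most abundant arm of miR-17-92, differed in the opposite direction to miR-20a-5p. It had 5921, 5048 and 5658 normalized counts in sham libraries and 6197, 8145 and 6473 in CCI-ION libraries. All CCI-ION libraries were above all sham libraries, by little except in replicate 2, and the ratio of the means was 1.25. The log2 fold change was 0.32 (standard error 0.15, 95% interval -0.06 to 0.69, adjusted p = 0.200 from limma). miR-92a-3p is also abundant in blood cells. The erythrocyte miRNAs, of which 3 of 4 were listed and none called, summed to between 2837 and 3798 in sham libraries and to between 2898 and 3660 in CCI-ION libraries, and miR-144-3p was not listed. Among them, miR-451-5p had 204.2 ± 58.0 in sham and 419 ± 53.3 in CCI-ION libraries (SD, n = 3 each, adjusted p = 0.0649 from limma), while miR-486, which made up most of the sum, had 3076 ± 437 and 2904 ± 353 (SD, n = 3 each, adjusted p = 0.749 from limma). miR-451-5p was called higher under total-count scaling, a filter at a mean of 10, and an intensity trend. Its adjusted p was then 0.0411, 0.0395 and 0.0240 from limma. No other alternative called it. miR-144-5p was at 0 in 1 sham and 2 CCI-ION libraries. The part of blood in the value of miR-92a-3p was not tested.

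The remaining arms of miR-17-92 were the least abundant. miR-19b-3p had 38.9, 23.3 and 24.4 normalized counts in sham libraries and 73.5, 36.5 and 40.9 in CCI-ION libraries, from 28 to 79 reads. CCI-ION replicate 1 was by far the highest, the lowest CCI-ION library was below the highest sham library, and the log2 fold change was 0.75 (standard error 0.34, 95% interval -0.09 to 1.59, adjusted p = 0.180 from limma). miR-18a-5p was at 0 in 5 libraries and had 9 reads (9.69 normalized counts) in CCI-ION replicate 3, so no fold is given.

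**Figure D2:**
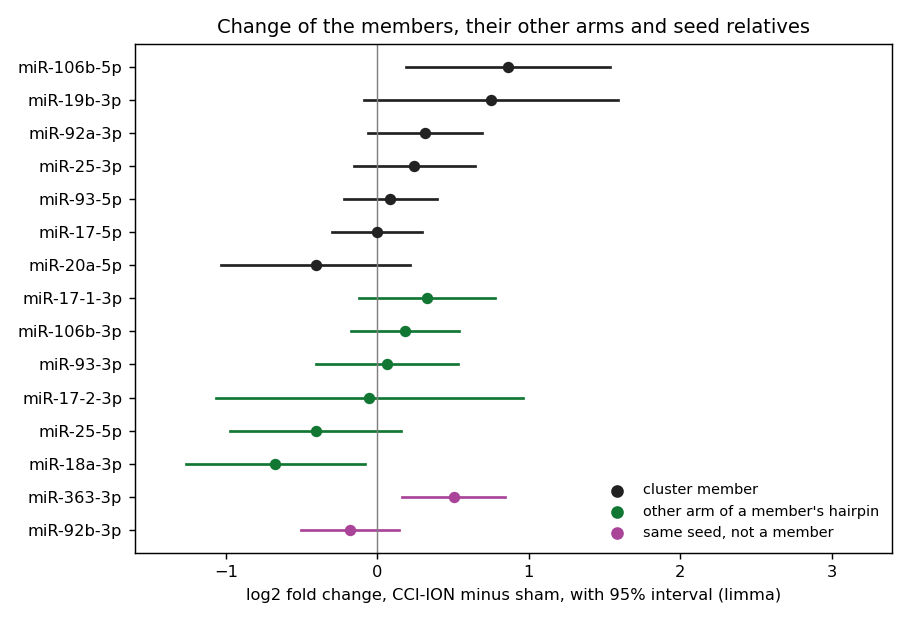
Log2 fold change (CCI-ION minus sham, limma on log2(normalized count + 1)) with its 95% interval for members (black), other arms of their hairpins (green) and further miRNAs with a member's seed (purple). miRNAs at 0 in any library are left out. Among the members drawn, only the interval of miR-106b-5p lies above 0, and no adjusted p is under 0.05.

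By cluster, among the 5 listed members of miR-17-92, the log2 fold change was above 0 in 3 and below 0 in 2, with a median of 0.32. Of the 2 below 0, miR-17-5p was at -0.001, which gives no direction. With miR-18a-5p left out, 2 were above 0 and 2 below, with a median log2 fold change of 0.16. All 3 of miR-106b-25 were higher, with a median of 0.24, although under upper-quartile scaling 2 of the 3 were lower and the median was -0.0024. That scaling moved the median of all miRNAs tested to -0.26, below that of the cluster. The difference between the clusters was not tested. The summed normalized counts of miR-17-92 were 7666, 6562 and 7129 in sham libraries and 7673, 9465 and 8157 in CCI-ION libraries, a ratio of means of 1.18. The CCI-ION libraries were above the sham libraries, with replicate 1 of both groups all but equal. The sum of miR-106b-25 was 8203 ± 1022 in sham and 9570 ± 1093 in CCI-ION libraries (SD, n = 3 each), a ratio of 1.17, and the groups overlapped. Taken as a share of each library's total, this sum did not overlap, so the overlap depends on the scaling. Both sums are set mainly by their most abundant arm. That of miR-17-92 may include reads of miR-17-5p, miR-19b-3p and miR-92a-3p that come from miR-106a-363. In 3 other clusters named for comparison, the median log2 fold change was 0.30 for the 5 miRNAs of the miR-23, miR-27 and miR-24 clusters with 1 called. It was -0.09 for the 5 of the miR-15 and miR-16 family and 1.08 for miR-183-5p, miR-96-5p and miR-182, with none called in either.

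By seed, the sum of the AUUGCAC members was higher in CCI-ION libraries and that of the AAAGUGC members was close to equal. The 4 members with AAAGUGC summed to 3403 ± 324 in sham and 3482 ± 173 in CCI-ION libraries (SD, n = 3 each), a ratio of 1.02, and their median log2 fold change was 0.04, or -0.21 under upper-quartile scaling. miR-92a-3p and miR-25-3p, with AUUGCAC, summed to 11890 ± 1183 and 14465 ± 2092 (SD, n = 3 each), a ratio of 1.22, and the CCI-ION libraries were above the sham libraries. The nearest libraries, with 13231 in sham replicate 1 and 13238 in CCI-ION replicate 1, were almost equal. Their median log2 fold change was 0.28, or 0.034 under upper-quartile scaling and 0.16 without CCI-ION replicate 2. The difference between the seeds was not tested.

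Another miRNA with this seed was more abundant than both members. miR-92b-3p, encoded on chromosome 2, differs from miR-92a-3p by U10C and G21C:
miR-92b-3p: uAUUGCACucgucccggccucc
miR-363-3p: aAUUGCACgguauccaucugu

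miR-92b-3p had 26895, 23335 and 25397 normalized counts in sham libraries and 21749, 24925 and 20277 in CCI-ION libraries, 3.81 times the mean of miR-92a-3p. Its log2 fold change was -0.18 (standard error 0.13, 95% interval -0.50 to 0.15, adjusted p = 0.364 from limma), with overlapping groups. With all 5 listed miRNAs of the seed summed, the ratio of CCI-ION to sham means was 0.992, and the groups overlapped. The share of miR-92b-3p in this sum was 66.9% to 68.8% in sham and 59.5% to 62.0% in CCI-ION libraries, that of miR-92a-3p 14.7% to 15.3% and 17.7% to 19.5%, and that of miR-25-3p 15.7% to 18.2% and 20.1% to 20.9%. These shares add up to nearly the whole sum, so they move together and are a single description, which was not tested.

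miR-363-3p comes only from the X-linked cluster and is one of its arms that can be read apart from miR-17-92. It had 62.9, 50.7 and 54.8 normalized counts in sham libraries and 73.5, 77.9 and 88.3 in CCI-ION libraries. The groups did not overlap, and the log2 fold change was 0.50 (standard error 0.14, 95% interval 0.16 to 0.84, adjusted p = 0.0828 from limma). miR-20b-5p, the other X-specific arm with a member's seed, was at 0 in all CCI-ION libraries and had 0, 11 and 5 reads in sham libraries. miR-32-5p, encoded on chromosome 5, had 0 to 28 reads, and its groups overlapped. Of these 4 further miRNAs with a member's seed, none was called.

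Pairs of members with one seed asked whether such members differed alike between the groups. The log2 ratio was compared over libraries by exact two-sided permutation for 7 pairs, with Benjamini-Hochberg adjustment over the 7. With 3 libraries a group the smallest p is 0.1. The groups did not overlap in 2 of the 7, both with miR-106b-5p, where 49.7% of the ratios between any pair of miRNAs with means of at least 100 did not.

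The ratio of miR-20a-5p to miR-106b-5p differed most in size. It was 5.35, 4.89 and 3.96 in sham libraries and 2.00, 2.01 and 1.82 in CCI-ION libraries. The CCI-ION libraries lay close together, all below the sham libraries. The mean log2 ratio was 2.22 ± 0.22 in sham and 0.95 ± 0.08 in CCI-ION libraries (SD, n = 3 each), a difference of -1.27 (exact permutation p = 0.1, adjusted p = 0.28). miR-17-5p over miR-106b-5p was 11.1, 13.4 and 9.24 in sham and 5.65, 8.13 and 4.89 in CCI-ION libraries, a log2 difference of -0.86 (exact permutation p = 0.1, adjusted p = 0.28).

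The other 5 pairs overlapped between the groups. The log2 difference was -0.78 for miR-93-5p over miR-106b-5p, 0.49 for miR-93-5p over miR-20a-5p and 0.40 for miR-17-5p over miR-20a-5p (exact permutation p = 0.2 and adjusted p = 0.28 for each). The smallest differences were in the abundant pairs. miR-93-5p over miR-17-5p differed by 0.09 (exact permutation p = 0.4, adjusted p = 0.467), and miR-25-3p over miR-92a-3p by -0.07 (exact permutation p = 0.5, adjusted p = 0.5). The plain ratios do not depend on the scaling of the libraries. The log2 ratios that were compared do so slightly, through the pseudocount of 1 added to each normalized count.

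**Figure D3:**
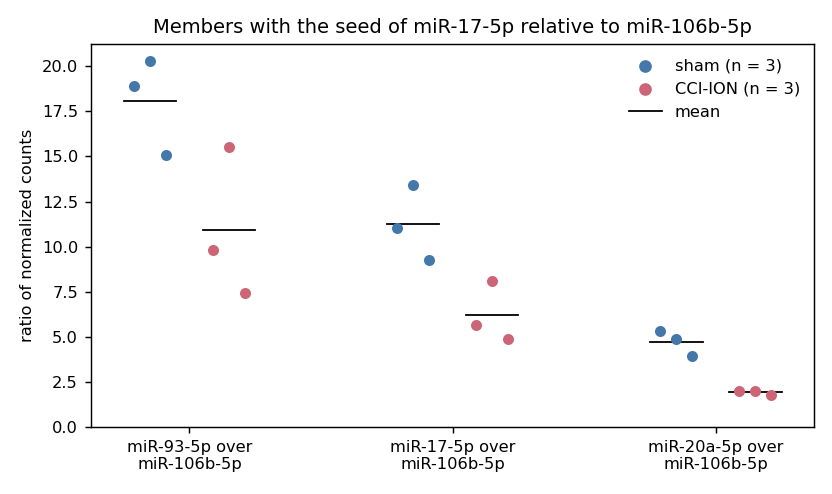
Normalized count of miR-93-5p, miR-17-5p and miR-20a-5p over that of miR-106b-5p within each library (linear axis from 0), with a point per sham (blue) or CCI-ION (red) library and a line at the group mean. The ratio of miR-20a-5p is 3.96 to 5.35 in sham and 1.82 to 2.01 in CCI-ION libraries, and that of miR-93-5p overlaps between the groups.

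The other arms of these hairpins gave a further reading of some precursors, but not of miR-20a or miR-19b, whose other arms were not listed. Of the 12 other arms in RefSeq, 7 were listed. None of these was called, and their median log2 fold change was 0.06. In miR-106b the 3p arm, not the member, was the abundant one:
miR-106b-3p: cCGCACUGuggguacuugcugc

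miR-106b-3p had 1426, 1436 and 1392 normalized counts in sham libraries and 1462, 1919 and 1490 in CCI-ION libraries. All CCI-ION libraries were higher, most of all replicate 2, and the log2 fold change was 0.18 (standard error 0.14, 95% interval -0.17 to 0.54, adjusted p = 0.397 from limma). miR-18a-3p also exceeded miR-18a-5p, with 13.7, 13.3 and 20.2 in sham libraries and 9.30, 7.31 and 11.8 in CCI-ION libraries, from 6 to 24 reads. All CCI-ION libraries were lower, and the log2 fold change was -0.67 (95% interval -1.27 to -0.08, adjusted p = 0.124 from limma).

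The 3p arms that pair with miR-17-5p differ between its loci, and so tell chromosome 15 from the X chromosome. miR-17-1-3p from chromosome 15 had 11.4 to 16.6 normalized counts in sham and 14.9 to 19.5 in CCI-ION libraries, a log2 fold change of 0.33 (limma, adjusted p = 0.248). miR-17-2-3p from the X chromosome had 5.06 to 9.98 and 5.38 to 13.4, a log2 fold change of -0.05 (limma, adjusted p = 0.939). The first exceeded the other 1.25 to 3.4 times within libraries, at 5 to 20 reads each. miR-92a-1-5p was at 0 to 7.31 in all libraries.

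The balance of the arms was compared as a log2 ratio in the same kind of fit over 186 hairpins whose arms both had a mean of at least 10, of which 18.3% were called. Of the 4 hairpins of the clusters, none was called. miR-25-3p over miR-25-5p was 112, 95.3 and 104 in sham libraries and 120.1, 179 and 203.9 in CCI-ION libraries. The CCI-ION libraries were all higher, and the log2 difference was 0.65 (standard error 0.22, 95% interval 0.12 to 1.18, adjusted p = 0.0854 from limma). It was the only one of the 4 at an unadjusted p under 0.05, where 38.7% of all hairpins were. miR-25-5p had 65.1, 62.4 and 55.6 normalized counts in sham libraries and 58.6, 48.7 and 33.4 in CCI-ION libraries.

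miR-106b-3p over miR-106b-5p was 13.7, 17.6 and 12.7 in sham libraries and 7.97, 15.2 and 6.12 in CCI-ION libraries. CCI-ION replicate 2 lay among the sham libraries, and the log2 difference was -0.68 (standard error 0.35, 95% interval -1.53 to 0.18, adjusted p = 0.202 from limma). Without CCI-ION replicate 2 it was -1.05 (adjusted p = 0.0261 from limma), in a fit that called 46 hairpins in place of 34. Without any other single library it was -0.40 to -0.77, with an adjusted p of 0.257 to 0.431 from limma. The log2 difference was 0.02 for miR-93-5p over miR-93-3p and -0.33 for miR-17-5p over miR-17-1-3p, with overlapping groups. The last ratio is not that of a single hairpin, since miR-17-5p is also encoded on the X chromosome and miR-17-1-3p is not.

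**Figure D4:**
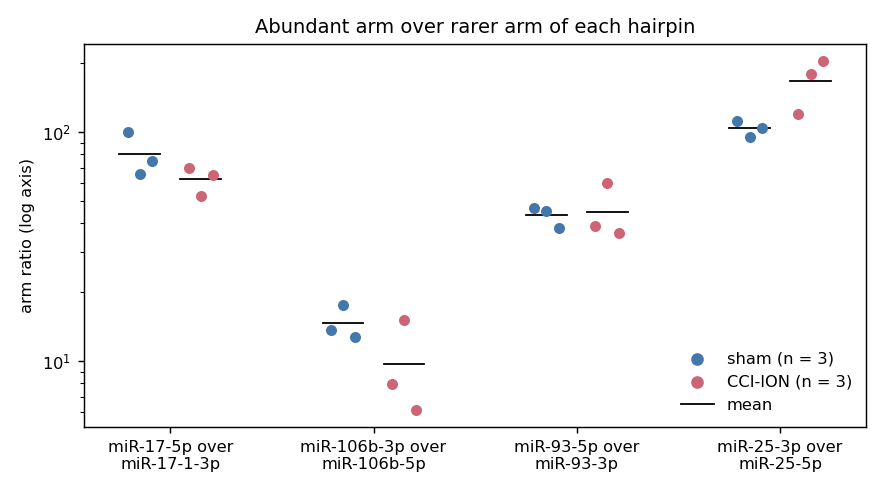
Ratio of the more abundant to the less abundant arm in each library (log axis) for the 4 hairpins of the clusters with both arms at a mean of at least 10, with a point per sham (blue) or CCI-ION (red) library and a line at the group mean. For miR-25 the CCI-ION libraries (120.1 to 203.9) are above the sham libraries (95.3 to 112), and the groups overlap for the other hairpins.

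The miRNAs whose levels followed the clusters most closely were sought among 358 non-members with a mean of at least 100, by Pearson's r with the members' mean log2 level over the 6 libraries, given as a description. For the 5 members of miR-17-92 they were miR-344a-3p (r = 0.96), miR-29c-5p (r = 0.94) and miR-34c-5p (r = 0.93), but these rested on miR-18a-5p and its single library above 0. Over the other 4 members, these miRNAs had r of 0.62, 0.61 and 0.73, and the closest were miR-101a-3p (r = 0.95), miR-30d-3p (r = 0.94) and miR-101b-3p (r = 0.92). For miR-106b-25 they were miR-34c-5p (r = 0.94), miR-532-5p (r = 0.93) and miR-152-3p (r = 0.93). The profiles share libraries and size factors. That of miR-106b-25 was higher in every CCI-ION library than in any sham library. As a mean of log2 levels, it counts the rare miR-106b-5p as much as the 2 abundant members. For miR-93-5p, miR-25-3p and the cluster's summed counts the groups overlapped. miRNAs chosen for following this profile would tend to differ between the groups as well. Of the miRNAs chosen in this way, miR-532-5p and miR-152-3p were called higher after CCI-ION, where 6.85% of all miRNAs tested were called. Their log2 fold changes were 0.88 (adjusted p = 0.0435 from limma) and 0.61 (adjusted p = 0.0450 from limma). Leaving out a single library ended both calls for any of 5 libraries in miR-532-5p and of all 6 in miR-152-3p, with adjusted p of up to 0.149. Both calls also ended under upper-quartile scaling (adjusted p = 0.0587 and 0.0598 from limma) and with the replicate number as a block (adjusted p = 0.0937 and 0.145 from limma).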

How the data were processed

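The miRNAs of ARC tissue were sequenced by the authors in 3 sham and 3 CCI-ION libraries, which the labels assign to their groups. Per the submitters' processing notes, cutadapt 1.14, Bowtie 1.1.1 and the rn6 build were used. The miRNA annotation, counting and normalization are not given in the sources used here. The authors deposited 1 signal value per miRNA and library. Within a library all values (100%, tolerance 0.01 steps) were whole multiples of 1 step, the inverse of a size factor, and the smallest above 0 was worth 5 steps. They were therefore taken as normalized read counts, on which count tests were not used.

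log2(value + 1) was compared with limma 3.58.1 in R 4.3.3, two-sided, without covariates. The 555 miRNAs whose mean reached 1 were tested, and 7 were left out. Benjamini-Hochberg adjusted p under 0.05 counted as called. Ratios of 2 members were compared by exact permutation (scipy 1.17.1, Python 3.11.15). Fold changes on this scale understate those of low miRNAs. SDs are between libraries. Names of 512 of 562 miRNAs matched the RefSeq miRNA table, whose GRCr8 coordinates were kept apart from the rn6 data.

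The named miRNAs were the members, the other arms of their hairpins, listed miRNAs with the same seed or from miR-106a-363, and the 3 most alike to each cluster. Members and lists were chosen with earlier results of these data known. Single cell type markers, and the miRNAs nearest to miR-17-92 without miR-18a-5p, were named after their values were seen. Alternatives were other scalings, filters and pseudocounts, an intensity trend, the replicate number as a block, and leaving out each library. Same-numbered libraries correlated at -0.03, 0.19 and -0.01 in their deviations, so the numbers were not taken as pairs. The fit was tested on simulated data.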

Additional observations from a re-analysis of the deposited data

How the results depend on the processing

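No member was called under any of the 14 alternatives to the limma fit, and the adjusted p of miR-106b-5p ranged from 0.0536 to 0.257. The direction of miR-19b-3p, miR-20a-5p, miR-92a-3p and miR-106b-5p was kept in all 14. Of the 38 miRNAs called (19 higher, 19 lower), scaling moved the balance: 94 (10 higher, 84 lower) under upper-quartile scaling, 51 (42 higher, 9 lower) under total-count scaling, and 49 (30 higher, 19 lower) scaled to the total without miR-7a-5p. A filter at a mean of 10 gave 63, and an intensity trend gave 88. With the replicate number as a block, 3 miRNAs (154 at an unadjusted p under 0.05) and 15 hairpins were called and no member, and the same-numbered libraries were not shown to be pairs. Leaving out 1 library gave 7 to 42 miRNAs (7 without sham replicate 3, 9 without sham replicate 1, 11 without sham replicate 2, 10 without CCI-ION replicate 3, 20 without CCI-ION replicate 1), 1 to 46 hairpins in place of 34 (1 without sham replicate 3, 9 without sham replicate 1, 12 without sham replicate 2, 20 without CCI-ION replicate 1), and 2 to 5 pairs without overlap in place of 2 (4 without sham replicate 2 or 3, 5 without CCI-ION replicate 3). Hairpins with both arms at a mean of at least 1 gave 22 calls. Under total-count scaling all miRNAs had a median of 0.17 on the log2 scale, and the members had medians of 0.52 for miR-17-92, 0.45 for miR-106b-25, 0.24 for AAAGUGC and 0.48 for AUUGCAC. Upper-quartile scaling gave 0.069, -0.0024, -0.21 and 0.034, with -0.26 for all. A mean of at least 10 gave 0.16 for miR-17-92 and so did leaving out miR-18a-5p, an alternative chosen after seeing the data. Leaving out 1 library gave 0.15 to 0.39. Signs turned under total-count scaling for miR-17-5p (0.20), miR-17-2-3p (0.12) and miR-92b-3p (0.023), without miR-7a-5p for miR-17-5p (0.051), and under upper-quartile scaling for miR-93-5p (-0.16), miR-25-3p (-0.0024), miR-106b-3p (-0.063) and miR-93-3p (-0.18). With 1 library left out, the sign turned within these ranges: miR-17-5p -0.069 to 0.042, miR-17-2-3p -0.44 to 0.15, miR-92a-1-5p -0.52 to 1.19, miR-93-3p -0.049 to 0.24, miR-32-5p -1.92 to 0.29, and miR-93-5p over miR-93-3p -0.20 to 0.15. miR-363-3p was called under total-count scaling (adjusted p = 0.0356), miR-20b-5p without sham replicate 1 (adjusted p = 0.0277), and miR-25-3p over miR-25-5p without CCI-ION replicate 1 (adjusted p = 0.0321). The erythrocyte miRNA miR-451-5p was called under total-count scaling, a filter at a mean of 10, and an intensity trend (limma, adjusted p = 0.0411, 0.0395 and 0.0240). The cause of these shifts was not tested. The planned tests for counts on reads recovered from the values were not run. The check set for them takes the smallest value above 0 as a single step, and here it was worth 5 steps. The values of miR-18a, miR-20b-5p, miR-32-5p and most minor arms rest on few reads.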
